A study of Homo sapiens with 96 samples.

Results

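The 9 libraries described here came from K562 cells that were given DMSO, SN-38 or etoposide for 6 h and were then washed and kept without the drug for 0, 2 or 6 h. They were chosen by their labels and form 9 of the 96 libraries of the series, with 1 library for each of the 3 treatments at each of the 3 wash times. K562 is an established human erythroleukemic line that carries a BCR-ABL1 fusion gene. Total RNA was depleted of ribosomal RNA and sequenced in strand-specific paired-end libraries, and what was measured is the editing level, the fraction of reads with G at a listed A. No genotype or transgene separated the groups, DMSO was the solvent control, and no dose is given in the labels. The list of editing sites held no expression values, so the identity of the cells could not be checked against marker genes.

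SN-38 is the active form of irinotecan and traps topoisomerase I on DNA, whereas etoposide traps topoisomerase II. Both enzymes relieve the torsion that a moving RNA polymerase leaves in DNA, and the trapped complexes of either drug are known to reverse once it is removed. ADAR enzymes turn adenosine into inosine in double-stranded RNA, most often in inverted repeats inside introns, 3′ UTRs and long non-coding RNAs, and inosine is read as G. Very long intergenic non-coding RNAs (vlincRNAs) are nuclear transcripts that carry many such sites in this line.

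A site was counted as found in a library when the deposited level was above 0. A level of 0 says only that no level was recorded there, since the list gives neither the reads at a site nor a separate mark for an uncovered site. The wash-out libraries together held 711 (17.4%) of the 4092 sites that carry levels, with 1255 values above 0. Library totals ran from 31238583 to 46272413 reads, and the etoposide library at 6 h of wash was the smallest. With 1 library at each drug and wash time, every test below measures the spread between these libraries, and nothing in the labels says that they came from separate cultures.

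Sequences are shown for the sites on which the results turn, because the surrounding bases cannot be recovered from a gene name. Each is read 5′ to 3′ on the edited strand of GRCh38, and the capital marks the edited A. The first 4 are the sites found in all 9 libraries, namely AJUBA at chr14:22972253-22972281 on the minus strand, PIP5K1C at chr19:3648313-3648341 on the minus strand, GNL3L at chrX:54563283-54563311 on the plus strand and ESPL1 at chr12:53282025-53282053 on the plus strand. The other 5 differed in presence between a drug and DMSO, namely ITGAV at chr2:186628614-186628642 on the plus strand, NUP58 at chr13:25317485-25317513 on the plus strand, NUP98 at chr11:3698894-3698922 on the minus strand, STXBP5 at chr6:147247762-147247790 on the plus strand and the long non-coding RNA ENSG00000286251 at chr4:126433300-126433328 on the minus strand.
AJUBA: ttgccacctctcagAggggtcccggattg
PIP5K1C: cgccttgaaaatctAgagtgagttgggcg
GNL3L: atgcacctctacttAtgatggggctactt
ESPL1: taaattggcggacaAgtcactggtgaggg
ITGAV: cactacactgcactAtgtcaaatcaacaa
NUP58: gggggtccatggtaAtcagggatccatgg
NUP98: ataacataaaatttAacttttaatcaagt
STXBP5: ttatatagatttttAggggctggtactca
ENSG00000286251: ggctgatttttggcAgcttgattgtcaca

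The number of sites found differed most between the drugs, with SN-38 highest and etoposide lowest at every wash time. In DMSO, 176, 109 and 163 sites were found at 0, 2 and 6 h of wash. In SN-38, the numbers were 263, 133 and 166, and in etoposide they were 82, 76 and 87. The 3 etoposide libraries lay below all 3 DMSO libraries, whereas the SN-38 libraries overlapped those of DMSO. The mean was 149 ± 35.5 sites in DMSO, 187 ± 67.6 in SN-38 and 81.7 ± 5.51 in etoposide (SD, n = 3 each).

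Etoposide libraries held 0.466, 0.697 and 0.534 of the sites of the matching DMSO library at 0, 2 and 6 h, a mean difference of -67.7 sites. SN-38 libraries held 1.49, 1.22 and 1.02 times the sites of DMSO, a mean difference of 38 sites that shrank from 87 at 0 h to 3 at 6 h of wash. An exact permutation test over the 3 drugs within wash time gave p = 0.0278, the smallest p that it can give, and an adjusted p of 0.111 over the 8 tests of drug. Each drug alone against DMSO gave an exact two-sided p of 0.25, which is the smallest that 3 pairs can reach. Per 1000000 reads, DMSO libraries held 4.63, 2.59 and 3.63 sites, SN-38 7.14, 3.20 and 3.59, and etoposide 2.20, 1.95 and 2.79. On that scale SN-38 no longer lay above DMSO at 6 h, and the exact test over the drugs gave p = 0.0556.

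**Figure D1:**
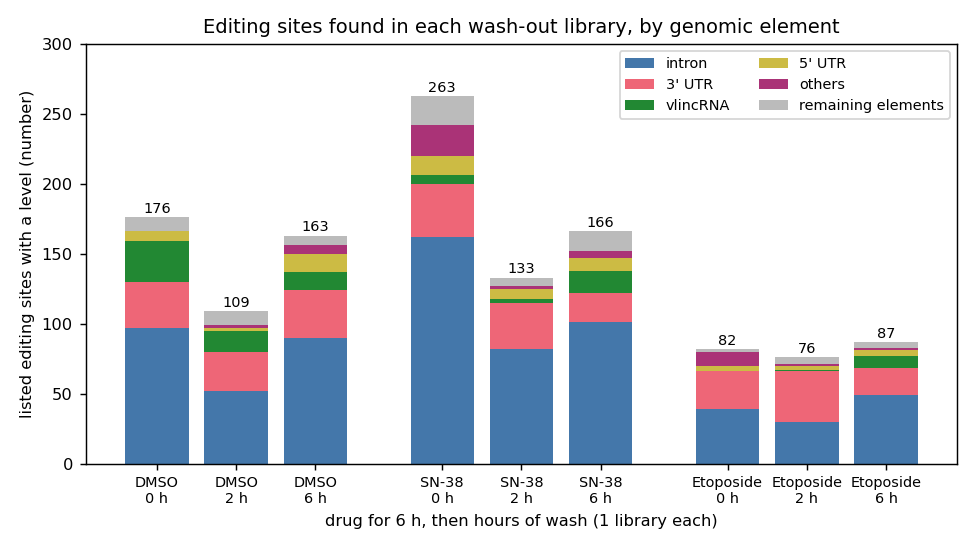
Bars show the number of listed editing sites with a level above 0 in each of the 9 wash-out libraries (1 library per bar), split by the genomic element given in the list. The SN-38 library at 0 h of wash stands highest at 263 sites, and the 3 etoposide libraries lie between 76 and 87.

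Libraries at 2 h of wash had the fewest sites in each treatment. The means over the treatments were 174 ± 90.5 sites at 0 h, 106 ± 28.6 at 2 h and 139 ± 44.8 at 6 h (SD, n = 3 each). Over wash times within drug, the same test gave an exact p of 0.0833 and an adjusted p of 0.292 over 7 tests, so the difference did not pass.

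Few sites recurred between libraries. Of the 711 found sites, 459 (64.6%) were found in 1 of the 9 libraries, 21 in at least 7 and 4 in all 9. Sites found in 1 library lay in 3′ UTRs in 8.93% of cases. The share was 23.2% and 24.5% for sites found in 2 and 3 libraries and varied from 12.5% to 58.3% for those found in 4 to 9, of which there were 4 to 19 each. The share of all sites of a library pair that both libraries held had a median of 16.2% within a drug, 13.6% within a wash time and 13.2% where neither was shared. The largest such share was 20.4%, so no library was a copy of another. Of the 711 sites, 692 were also found in at least 1 of the other 87 libraries of the series. The authors kept only sites found in at least 2 libraries. A site found in 1 wash-out library therefore had to be found elsewhere among the 130 columns of levels, and this number is no measure of recurrence. Sites of the SN-38 library at 0 h were found in a median of 8 of those 87 libraries, the lowest of the 9, and 52.5% of its sites were in no other wash-out library.

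The make-up of the found sites also differed, with introns prominent in SN-38 and 3′ UTRs in etoposide. Introns held 55.1%, 47.7% and 55.2% of found sites in DMSO at 0, 2 and 6 h, against 61.6%, 61.7% and 60.8% in SN-38. All 3 SN-38 shares lay above all 3 DMSO shares, by a mean of 8.69 percentage points, with an exact two-sided p of 0.25. In etoposide, introns held 47.6%, 39.5% and 56.3%, which overlapped DMSO. The exact permutation test over the drugs gave p = 0.0556 and an adjusted p of 0.148.

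Sites in 3′ UTRs made up 18.8%, 25.7% and 20.9% of found sites in DMSO, 14.4%, 24.8% and 12.7% in SN-38, and 32.9%, 47.4% and 21.8% in etoposide. At each wash time etoposide was highest and SN-38 lowest. The exact permutation test over the drugs gave p = 0.0278, again the smallest possible, and an adjusted p of 0.111. The counts behind these shares were closer than the shares, with 33, 28 and 34 sites in DMSO and 27, 36 and 19 in etoposide. Intronic sites numbered 97, 52 and 90 in DMSO and 39, 30 and 49 in etoposide, so they were fewer at every wash time. VlincRNA sites were also fewer, at 29, 15 and 13 in DMSO and 0, 1 and 9 in etoposide. Because the shares of a library sum to a fixed total, a higher 3′ UTR share and a lower intron share are not separate measurements.

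VlincRNA sites made up a small share in both drugs at 0 and 2 h of wash and a larger share at 6 h, while their share in DMSO fell. They made up 16.5% of found sites (29 of 176, Wilson 95% interval 11.7 to 22.7) in DMSO at 0 h, 13.8% (15 of 109, 8.52 to 21.5) at 2 h and 7.98% (13 of 163, 4.72 to 13.2) at 6 h. In SN-38 the shares were 2.28% (6 of 263, 1.05 to 4.89), 2.26% (3 of 133, 0.77 to 6.42) and 9.64% (16 of 166, 6.02 to 15.1). In etoposide they were 0 of 82 sites, which allows a share of up to 3.66% by the limit of 3 counts (Wilson upper bound 4.48%), then 1.32% (1 of 76, 0.233 to 7.08) and 10.3% (9 of 87, 5.54 to 18.5). At 0 and 2 h the intervals of both drugs lay below those of DMSO, and at 6 h all 3 overlapped. These intervals cover counting error only, and sites of 1 transcript are not independent.

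Over the 3 wash times together the vlincRNA share did not pass, with an exact permutation p of 0.278 and an adjusted p of 0.444, since the order of the treatments at 6 h was opposite to that at 0 and 2 h. Of the 57 vlincRNA sites, 15 lay in LINC00534, a long non-coding RNA gene on chromosome 8. LINC00534 gave 10, 10 and 6 sites in DMSO, 1, 3 and 12 in SN-38, and 0, 0 and 1 in etoposide. Outside it, 19, 5 and 7 vlincRNA sites were found in DMSO, 5, 0 and 4 in SN-38, and 0, 1 and 8 in etoposide. The loci ENSG00000228541 and ENSG00000286385 held 2 sites each in etoposide at 6 h and 0 in every other wash-out library. The other vlincRNA sites of etoposide at 6 h lay in LINC00534, in ENSG00000249174 and, outside any gene, on chromosome 5. DMSO also held vlincRNA sites in each of these. Whether fewer transcripts, fewer reads or less editing lay behind a missing site was not tested, because the list holds no coverage.

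**Figure D2:**
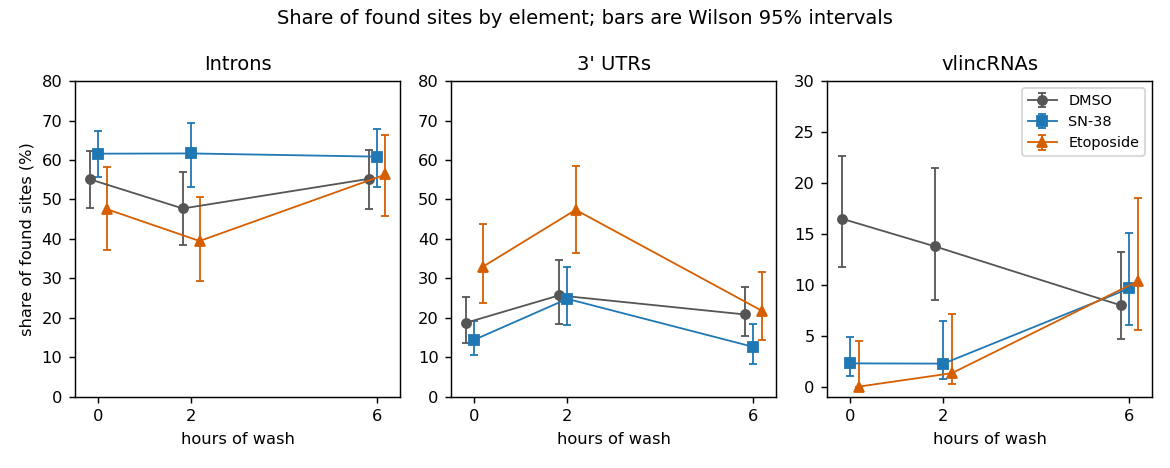
Points show the percent of found sites in introns, 3′ UTRs and vlincRNAs against hours of wash, 1 library per point, with Wilson 95% intervals as bars and a narrower vertical axis for vlincRNAs. At 0 and 2 h the vlincRNA shares of SN-38 and etoposide lie at or under 2.28%, against 13.8% to 16.5% in DMSO, and at 6 h the 3 treatments lie between 7.98% and 10.3%.

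Sites called annotated in the list, those held by public editing databases, made up 83.5%, 83.5% and 87.7% of found sites in DMSO. In SN-38 they made up 90.1%, 92.5% and 84.9%, and in etoposide 91.5%, 93.4% and 82.8%. Both drugs lay above DMSO at 0 and 2 h and below it at 6 h. Exact permutation gave p = 0.417 over the drugs and p = 0.389 over wash times (adjusted p of 0.472 and 0.544).

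A T before the edited A, the neighbour that ADAR enzymes are known to favour with A, was present at 345 of 711 found sites (48.5%) and at 49.3% of all listed sites. The share ranged from 43.1% to 51.1% in DMSO, 45.1% to 45.6% in SN-38 and 43.9% to 54.0% in etoposide. The groups overlapped, with an exact permutation p of 0.444 over the drugs (adjusted p of 0.472).

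The position of intronic sites within their host genes was compared because topoisomerase inhibitors are known to hinder transcription through long genes. The median distance from the annotated gene start was 24644, 16189 and 16686 bases in DMSO at 0, 2 and 6 h. It was 13775, 15975 and 13425 bases in SN-38 and 26058, 15746 and 14584 in etoposide. The SN-38 medians all lay below those of DMSO, while etoposide overlapped DMSO. The exact permutation test over the drugs gave p = 0.222 and an adjusted p of 0.444. At 0 h, 13.0% of intronic sites in SN-38 (21 of 162, Wilson 95% interval 8.64 to 19.0) lay over 50000 bases from the start, against 32.0% in DMSO (31 of 97, 23.5 to 41.8) and 43.6% in etoposide (17 of 39, 29.3 to 59.0). After 6 h of wash these shares were 27.7%, 33.3% and 28.6%. The limit of 50000 bases was set after the values were seen.

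The median editing level over the sites found in all 9 libraries did not pass the test over the drugs. At sites shared by etoposide and DMSO at 0 and 6 h of wash, more levels were higher than lower in etoposide. The median level over the 4 sites found in all 9 libraries was 0.207, 0.261 and 0.178 in DMSO, 0.202, 0.247 and 0.212 in SN-38, and 0.287, 0.224 and 0.256 in etoposide. The exact permutation test gave p = 0.472 over the drugs and p = 0.639 over wash times (adjusted p of 0.472 and 0.639). Over sites found in both libraries of a pair at the same wash time, the median of SN-38 minus DMSO was 0 over 48 sites at 0 h, -0.039 over 41 sites at 2 h and -0.0031 over 50 sites at 6 h. For etoposide minus DMSO it was 0.08 over 30 sites, 0 over 27 and 0.068 over 30. The median levels at these sites were 0.5, 0.444 and 0.398 in etoposide and 0.246, 0.3 and 0.288 in DMSO. Levels in etoposide were higher at 18 and lower at 7 of the 30 shared sites at 0 h. They were higher at 13 and lower at 11 at 2 h, and higher at 20 and lower at 8 at 6 h. These sites are not replicates, and etoposide shared 36.6%, 35.5% and 34.5% of its own sites with DMSO. A level entered only where the site was found in both libraries, and etoposide libraries held fewer found sites than DMSO. Whether this choice of sites moved the levels was not tested.

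Between 0 and 6 h of wash, 1 of the 4 shared sites changed in a fit by limma of all 4 (25.0%), and it lay in the 3′ UTR of AJUBA, which encodes a LIM-domain scaffold protein. Its level was 0.955, 0.875 and 0.35 in DMSO, 0.909, 0.706 and 0.554 in SN-38, and 1.00, 0.741 and 0.711 in etoposide at 0, 2 and 6 h. All 3 treatments, the solvent included, stood highest at 0 h and lowest at 6 h, and the 0 h and 6 h groups did not overlap. The difference of 6 h minus 0 h was -0.416 ± 0.0913 (SE, limma adjusted p = 0.0177). The exact permutation test of this site alone gave p = 0.0278, the smallest possible, and an adjusted p of 0.111 over the 4 sites. Over the alternatives the adjusted p ran from 0.00113 to 0.219, and leaving out DMSO, SN-38 or etoposide at 0 h, SN-38 at 2 h or etoposide at 6 h took it to between 0.0616 and 0.129. In the other 55 libraries where this site was found its median level was 0.75. The neighbouring AJUBA sites at 22972905 and 22972906 were found in 6 libraries each and showed no such order, at 0.918 and 0.923 in SN-38 at 6 h.

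No site passed limma in etoposide minus DMSO, in SN-38 minus DMSO or in 2 h minus 0 h of wash (0.00% of 4 each), and none had an unadjusted p under 0.05. The largest difference in a drug contrast was at ESPL1, the gene of separase, which cuts cohesin at anaphase. Its intronic site stood at 0.273, 0.344 and 0.2 in DMSO, 0.263, 0.305 and 0.263 in SN-38, and 0.444, 0.298 and 0.364 in etoposide, and the etoposide and DMSO values overlapped. Etoposide minus DMSO was 0.096 ± 0.0491 (SE, limma adjusted p = 0.403). GNL3L, a nucleolar GTP-binding protein, ranged from 0.11 to 0.189 at its 3′ UTR site, and PIP5K1C, a lipid kinase, from 0.08 to 0.162 at its intronic site. Neither passed limma in any contrast, and each drug overlapped DMSO at both sites. With 20 sites found in at least 2 libraries of every treatment, limma called none in any contrast, and 2 had an unadjusted p under 0.05 in etoposide minus DMSO.

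**Figure D3:**
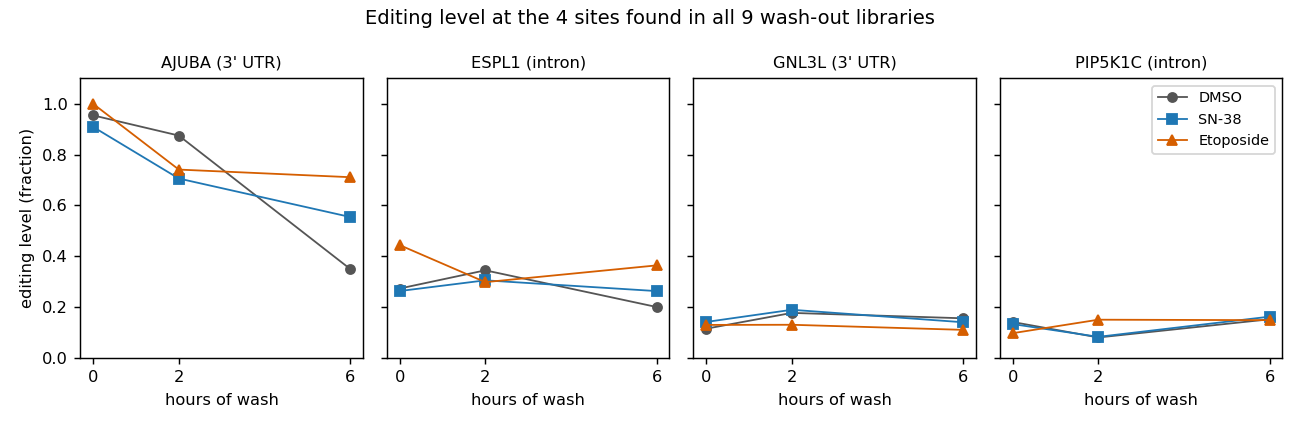
Lines join the editing level (fraction of reads with G) at 0, 2 and 6 h of wash for DMSO, SN-38 and etoposide at the 4 sites found in all 9 libraries, 1 library per point. At AJUBA the level falls from 0.909 to 1.00 at 0 h to between 0.35 and 0.711 at 6 h in all 3 treatments, and at the other 3 sites each drug overlaps DMSO.

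Few sites were present throughout a drug and absent throughout DMSO. Of 629 sites found in any DMSO or SN-38 library, 3 (0.477%) were found in all 3 SN-38 and in none of the DMSO libraries, and 1 (0.159%) showed the reverse. Of 451 sites found in any DMSO or etoposide library, 0 (0.00%) were found in all 3 etoposide and in none of the DMSO libraries, and 9 (2.00%) showed the reverse. Etoposide held fewer sites than DMSO at every wash time, and the part of this in the count was not tested. Of the 3 SN-38 sites, 2 lay on chromosome 8 and the other in an intron of ITGAV, which encodes an integrin subunit. The ITGAV site had levels of 0.418, 0.225 and 0.158 in SN-38 and 0.308 in etoposide at 2 h, and no level in the remaining libraries. Nearby ITGAV sites were found in DMSO, at 0.48 and 0.653 at 0 h, and the gene had 2, 0 and 1 found sites there at 0, 2 and 6 h. Whether reads covered the site itself in DMSO was not tested.

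Of the 9 sites found in all DMSO and in no etoposide library, 5 lay in LINC00534. The site in ENSG00000286251, a long non-coding RNA of unknown role, had levels of 0.9, 0.667 and 0.836 in DMSO and was found in neither drug at any wash time, and it was also the single site absent from SN-38. An intronic site of NUP58, a nuclear pore protein, had levels of 0.857, 0.8 and 0.778 in DMSO and of 0.8 and 0.45 in SN-38 at 2 and 6 h. Etoposide at 6 h had a level of 0.667 at the adjacent base of NUP58. Whether reads covered the site itself in the etoposide libraries was not tested. An intronic site of NUP98, another nuclear pore gene, stood at 0.403, 0.434 and 0.373 in DMSO and at 0.268 in SN-38 at 2 h. STXBP5, which encodes a syntaxin-binding protein, had an intronic site at 0.151, 0.07 and 0.085 in DMSO and at 0.25 and 0.07 in SN-38 at 0 and 6 h.

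Sites outside annotated elements, listed as Others, were concentrated in the drug libraries at 0 h of wash. They numbered 0, 2 and 6 in DMSO, 22, 2 and 5 in SN-38, and 10, 1 and 2 in etoposide. Of the 36 such sites found, 15 lay on the minus strand just before the start of BCR, a plus-strand gene on chromosome 22 at positions 23179704 to 23318037. The list holds 24 sites there, from 174 to 824 bases before the BCR start. The SN-38 library at 0 h held 11 of them, the etoposide library at 0 h held 8, and 4 were common to both. SN-38 at 6 h held 2, and none of the 24 was found in any DMSO library or in the other 3 drug libraries. Levels ranged from 0.0455 to 0.269 in SN-38 and from 0.0417 to 0.33 in etoposide at 0 h.

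This group was noticed after the values were seen, so its counts in the 9 libraries are a description. The stretch below is chr22:23179340-23179545 of GRCh38, read 5′ to 3′ on the minus strand, that is, away from BCR. Its 11 capitals mark the positions found in at least 1 of the 9 libraries, and the other 4 found positions lie farther from the gene.
Stretch before BCR: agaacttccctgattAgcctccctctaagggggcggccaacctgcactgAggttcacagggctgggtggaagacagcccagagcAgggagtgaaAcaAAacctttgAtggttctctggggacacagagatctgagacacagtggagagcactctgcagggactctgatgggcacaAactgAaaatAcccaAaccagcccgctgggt

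**Figure D4:**
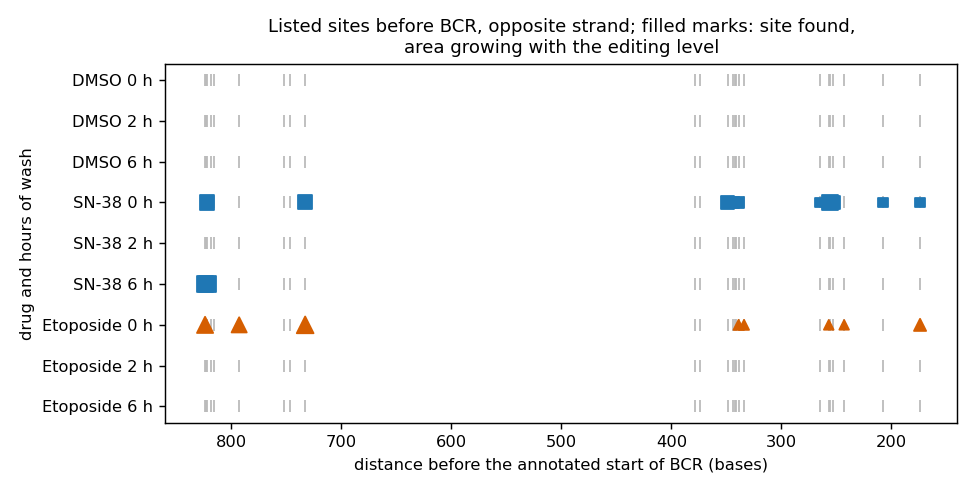
Each row is 1 wash-out library, the horizontal axis is the distance in bases before the annotated start of BCR, grey ticks are the 24 listed sites, and filled marks are the sites found, their area growing with the editing level. Filled marks appear in SN-38 and etoposide at 0 h (11 and 8 sites) and in SN-38 at 6 h (2 sites), and in no DMSO library.

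The drug libraries at 0 h of wash have counterparts in other sets of the series that were also taken at 6 h of drug, 8 libraries that took part in choosing the list but not in singling out the sites above. In the set started for actinomycin D, sites before BCR numbered 0 in DMSO, 4 in SN-38 and 11 in etoposide. In the set started for alpha-amanitin they numbered 1 in DMSO and 12 in etoposide, and after 3 h of DMSO they numbered 1 in DMSO, 4 in SN-38 and 2 in etoposide. Each drug library held more than its DMSO library in every set. Over the 3 sets without the wash-out, etoposide minus DMSO was 7.67 ± 5.77 sites (SD), and the exact two-sided p of 0.25 is the smallest that 3 sets allow. Sites in this stretch were found in 42 of the 87 libraries outside the wash-out, namely in 15 of 21 that received SN-38 or etoposide and in 27 of 66 that received neither. The number found per library had a median of 4 with SN-38 or etoposide and of 0 without, and the highest number was 15 in both.

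Etoposide had fewer sites than DMSO in 1 of these 3 sets. Etoposide held 301 sites against 284 in DMSO in the actinomycin D set, 389 against 250 after 3 h of DMSO, and 177 against 291 in the alpha-amanitin set. Over all 4 sets the difference was -13.0 ± 117 sites (SD, exact permutation p = 1). SN-38 held more sites than DMSO in all 3 of its sets, at 263 against 176, 337 against 284 and 328 against 250, a difference of 72.7 ± 17.6 sites (SD, exact p = 0.25, the smallest possible). The vlincRNA share was lower than in DMSO in all 3 SN-38 libraries and all 4 etoposide libraries, with mean differences of -7.79 and -7.68 percentage points (exact p of 0.25 and 0.125, the smallest possible). Without the wash-out set the mean differences were -4.58 points over 2 sets and -4.74 points over 3 (exact p of 0.5 and 0.25, the smallest possible). After 3 h of DMSO the shares were 7.20% in DMSO, 6.10% in SN-38 and 6.94% in etoposide, with overlapping intervals. The median distance of intronic sites from the gene start was shorter than in DMSO in all 3 SN-38 sets, with a difference of -13881 ± 2656 bases (SD, exact p = 0.25), and in 3 of 4 etoposide sets.

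**Figure D5:**
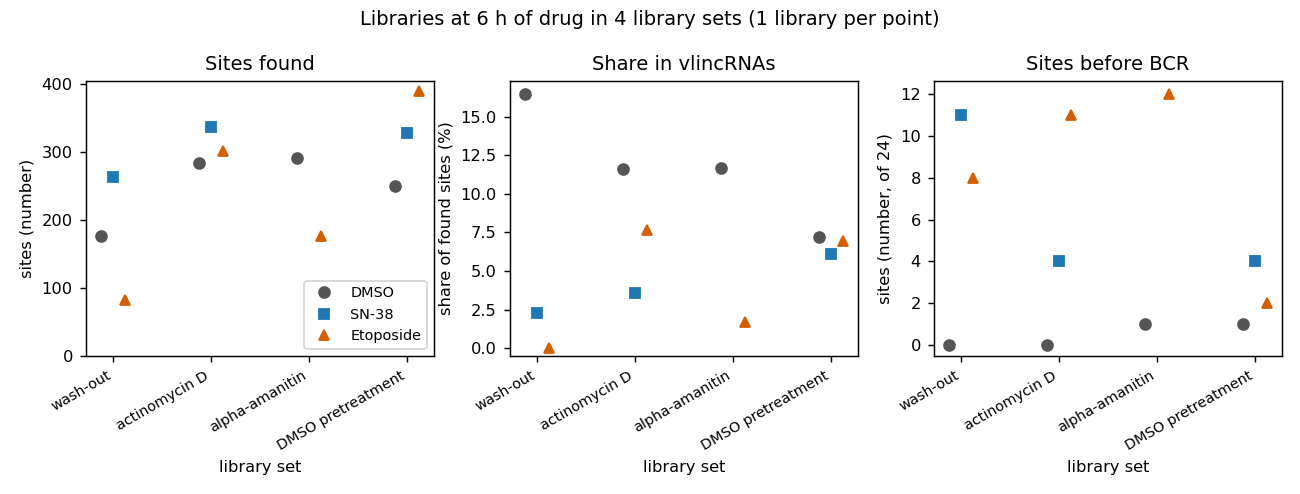
Points show single libraries at 6 h of drug in 4 sets, with the number of sites found, the percent of found sites in vlincRNAs and the number of the 24 sites before BCR that were found. Etoposide stands below DMSO in sites found in the wash-out and alpha-amanitin sets and above it in the other 2, while every drug library has more sites before BCR than its DMSO library.

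The genes with the most found sites after LINC00534 were edited mainly in 3′ UTRs, and their sites came and went between libraries. SMU1, a splicing factor, had 15 found sites, with 6, 0 and 8 in DMSO, 1 in SN-38 at 6 h and 7 in etoposide at 2 h. TEP1, a telomerase-associated protein, had 14, found in 8 of the 9 libraries at 1 to 7 sites each. DCPS, the scavenger decapping enzyme, had 13, with 2, 7 and 2 in DMSO, 2, 9 and 0 in SN-38 and 6, 3 and 0 in etoposide. ZNF514, a zinc finger gene, had 13, with 6, 0 and 6 in DMSO, 6, 0 and 4 in SN-38 and 2, 6 and 2 in etoposide. KCTD13, an adaptor of a ubiquitin ligase, had 13 intronic sites, all of them found in DMSO at 6 h, with 5, 2 and 6 in SN-38 and 1 in etoposide. Counts of the 3 libraries of 1 drug differed by up to 13 sites, at KCTD13 in DMSO, so no order between drugs was read from these genes.

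The gene lists are described by counts, beside the 17.4% of all listed sites and 23.8% of all genes with listed sites that were found. Of 9 topoisomerase and adduct repair genes, 1 had listed sites and none of them was found. Of 40 genes of double-strand break repair and the checkpoint, 9 had 40 listed sites, and 9 sites in 3 genes were found. All 9 were found in SN-38 at 0 h and in no other wash-out library, namely 7 in introns of RAD18, a ubiquitin ligase of replication repair, at levels from 0.05 to 0.26, and 1 each in BRCA1 and PALB2 at 0.5. The SN-38 library at 0 h held 263 of the 711 found sites, and the 7 RAD18 sites lie close together in 1 intronic region, from 8957558 to 8958371 on chromosome 3, so they are not separate events. Of 21 genes of excision and transcription-coupled repair, 3 had 10 listed sites. ERCC6 had 3 found sites and ERCC4 had 1, each in at most 2 libraries. ERCC6 is the CSB protein that acts at stalled RNA polymerase, and its site found in 2 libraries stood at 0.24 in SN-38 and 0.667 in etoposide, both at 0 h.

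Of 18 ADAR enzymes and sensors of double-stranded RNA, 3 had 11 listed sites. Of these sites 7 were found, all in the 3′ UTR of EIF2AK2, the kinase PKR. They were found in all 9 libraries, from 6 sites in DMSO at 0 h to 1 in etoposide at 2 h, with levels from 0.0217 to 0.36. The site at 37100891 stood at 0.112, 0.347 and 0.128 in DMSO, 0.17 and 0.189 in SN-38 at 0 and 6 h, and 0.25 and 0.22 in etoposide at 0 and 6 h. At 0 and 6 h etoposide was highest there and DMSO lowest, and with missing values in 2 libraries limma gave etoposide minus DMSO an adjusted p of 0.251. Of the 24 known recoding targets, 10 had 22 listed sites, and 7 sites in 4 genes were found. SON, a splicing cofactor, had a coding site at 0.01 in 8 libraries, and BLCAP, a classic recoding target, had a coding site between 0.12 and 0.252 in 6 libraries, with overlapping drugs. Of 18 erythroid and haemoglobin genes, 2 had listed sites and none was found.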

How the data were processed

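Editing levels of 9 libraries were taken from the deposited list of A-to-I sites, where each value is a fraction that the authors obtained as the mean over whichever callers saw the site there. Per the labels and the study's methods, reads were aligned with TopHat2 2.1.1 to GRCh38, PCR duplicates were taken out with Picard 2.0.1, alignments were sorted with SAMtools 1.9, and sites were called by REDItools, RED-ML and SPRINT. Known variants, variants that the authors found in K562 DNA, repeats and poorly mappable regions were filtered by the authors. They kept sites with a level above 0.2 in some library and found in at least 2. By the study's pipeline, sites called by REDItools alone were dropped. Unannotated sites needed RED-ML in introns and vlincRNAs, and both RED-ML and SPRINT in other elements. The element and annotation make-up of the list was thus partly set by that choice. Since the list was chosen over the series, these 9 libraries partly chose their own sites. The labels and the methods name different sequencers. Of 130 columns of levels, 34 were not used. Library totals came from the study's sample table and were used only for the scaling to 1000000 reads.

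A site was found where its level was above 0. Host genes came from GENCODE 44, preferring protein-coding genes and, among them, those not marked readthrough, then the longest. Drugs were compared by exact permutation tests with wash time as a block, and wash times with drug as a block, with Benjamini-Hochberg adjustment over 8 and 7 tests. Levels of sites found in all 9 libraries were fitted by limma 3.58.1 in R 4.3.3 with Benjamini-Hochberg adjustment over the sites, and this and the permutation test were tested on simulated data. Wash time pairs the libraries by the labels. The replicates of a drug are its 3 wash times. The threshold was 0.05, and intervals are Wilson 95%.

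Named sites were those found in all 9 libraries, up to 4 of each pattern of presence by highest mean level, the 5 genes with most sites (6 with a tie) and at most 4 genes of each list, with no site of chromosome 8. The comparisons, gene lists and rules were chosen with earlier results of these data known. The sites before BCR, the 50000 base limit, the AJUBA neighbours and the double-strand break sites were singled out after their values were seen.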

Additional observations from a re-analysis of the deposited data

Results flagged for a closer look

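Some results moved in opposite ways between groups, each with 1 library per drug and wash time, and most of these differences were not tested. Each SN-38 library held more sites than the DMSO library of the same wash time, and each etoposide library fewer. The SN-38 and DMSO ranges overlapped. SN-38 minus etoposide was 105.67 sites on average, from 57 to 181 (exact permutation p = 0.25, the smallest that 3 pairs allow). Against the DMSO library of the same wash time, the share in 3′ UTRs was lower in every SN-38 library and higher in every etoposide library. The differences were as small as -0.876 points in SN-38 at 2 h and 0.980 in etoposide at 6 h, and both drugs overlapped DMSO. SN-38 minus etoposide was -16.741 percentage points (exact permutation p = 0.25). Between 0 and 6 h of wash the vlincRNA share changed by -8.5018 percentage points in DMSO, 7.36 in SN-38 and 10.3 in etoposide. Over the same interval the annotated share changed by 4.2074 points in DMSO, -5.17 in SN-38 and -8.70 in etoposide. The 3′ UTR share changed by 2.1089 points in DMSO, -1.80 in SN-38 and -11.1 in etoposide. The differences of change over the wash were not tested, as each rests on 1 pair of libraries.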

How the results depend on the processing

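Of 372 values recomputed under an alternative, 313 stayed on their side of the threshold or moved by less than the limits set. No value that had passed its test changed direction. The exact test over drugs for sites found went from p = 0.0278 to 0.0786 with no replicate block, to 0.0556 for annotated sites only, per 1000000 reads or, chosen after seeing the data, without LINC00534, and to between 0.0278 and 0.139 when 1 library was left out. For 3′ UTR shares it went to 0.0929 with no replicate block, to 0.0556 with 1 site per cluster and to between 0.0278 and 0.139 with 1 library left out. In the exact test, sites found over wash times reached p = 0.0278 with annotated sites only or at least 2 methods, and spanned 0.0278 to 0.417 with 1 library left out. Median levels reached 0.0278 over drugs and over wash times with annotated sites only (exact test), which left 3 sites and put etoposide lowest where it was highest with 4. Etoposide was also lowest, and DMSO highest, without SN-38 at 2 h of wash (exact p = 0.0833). For median levels the p over wash times spanned 0.0278 to 0.917 with 1 library left out. No other call changed without the block.

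Leaving out 1 library, the sites in all of a group and none of the other numbered 4 to 15 for SN-38 and not DMSO, 2 to 12 for the reverse, 0 to 2 for etoposide and not DMSO and 9 to 26 for the reverse, as fewer libraries had to hold or lack a site. With 1 site per cluster SN-38 and not DMSO rose to 6 and DMSO and not etoposide fell to 4. With annotated sites only DMSO and not SN-38 fell to 0 and DMSO and not etoposide to 5, the latter also at a level of at least 0.2. Leaving out 1 library, limma called 0 to 1 sites in etoposide minus DMSO, in 6 h minus 0 h and in 2 h minus 0 h, and 0 in 6 h minus 0 h with 20 sites, where more sites were tested. The cause of the other changes was not tested. Restricting to protein-coding host genes left every site in place, and counting readthrough genes as hosts changed no call. With 1 site per cluster the distance of intronic sites from the gene start was lowest in etoposide and no longer in SN-38 (exact permutation p = 0.333).

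Depth at a site is unknown, so a site with no level may be uncovered, unedited or missed, and 1 library per drug and wash time leaves each wash-time difference without a replicate. The exact test of 3 pairs of libraries cannot go below p = 0.25.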

Other observations

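A site that was in no public database and lay 558 bases into UPK2, at position 118925722 of chromosome 11 on the plus strand, had a level of 1.00 in each of the 7 wash-out libraries where it was found. It was also found in 39 of the other 87 libraries, at 1.00 in 37 of them and at no less than 0.942. The listed base is A in GRCh38. The authors filtered the list against variants from their own sequencing of K562 DNA, and that DNA was not analysed here. The site was singled out after its values were seen.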
